A study of Mus musculus with 18 samples.

Results

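The collagen genes of the mouse striatum were examined in 18 mice as all protein-coding genes of the count table whose symbol is Col, a number, the letter a and a number, kept where the counts of the 18 libraries summed to 50 or more. The symbol matched 44 genes, of which 42 were kept among the 55421 genes of the table, while Col4a6 with 7 counts and Col10a1 with 15 counts fell under the minimum. Striatal RNA came from 5 WT, 5 zQ175, 3 CK2a'(+/-) and 5 zQ175:CK2a'(+/-) mice, aged 12 to 14 months and given as C57BL/6, and each mouse had its own library. zQ175 mice are heterozygous, with an expanded CAG repeat in a chimeric human and mouse exon 1 knocked into 1 allele of their own huntingtin gene. The mutant protein is thus made wherever that gene is active. CK2a'(+/-) mice lack 1 allele of Csnk2a2, the gene of the kinase subunit CK2α', in every tissue, and the line was derived on a mixed 129 and C57BL/6 background. zQ175:CK2a'(+/-) mice carry both changes. All mice were anesthetized with Avertin and perfused through the heart with heparin in PBS before dissection, and the libraries were made from total RNA. The study's methods give unequal sex ratios between the genotypes, and the labels give no sex for a library. The comparison of zQ175 with WT addresses what the HD allele does, and that of zQ175 with zQ175:CK2a'(+/-) addresses what the loss of 1 CK2α' allele does in HD mice.

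Collagens are triple-helical proteins of the extracellular matrix, built from 3 α chains that are each the product of a collagen gene. Fibrillar collagens form the tensile fibers of the meninges and vessel walls, type IV collagen forms the sheet of the vascular basement membrane, type VI collagen forms beaded filaments around cells, and the transmembrane collagens sit in the surface of neurons and other cells. In the healthy brain the collagen-rich structures are mainly the blood vessels, the meninges and the choroid plexus, and the tissue between neurons holds little fibrillar collagen.

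The libraries held 13612381 to 22702547 counts (median 18005044), and levels are given as CPM, the counts scaled to a common library size with edgeR's TMM factors. Csnk2a2 lay between 14.7 and 19.9 CPM in the 8 mice with 1 allele and between 29.4 and 37.5 CPM in the other 10, as the labels state. All 8 markers of striatal projection neurons were detected, with a sum of 1011 to 4724 CPM. Libraries that stood apart were seen in all 4 genotypes. Ttr, the transthyretin gene that the choroid plexus expresses very strongly, lay between 908 and 2904 CPM in WT mice 1 and 3, CK2a'(+/-) mouse 1 and zQ175:CK2a'(+/-) mouse 2 but between 0.861 and 10.5 CPM in the other 14. No zQ175 mouse was among these 4, and all 6 choroid plexus markers had their 4 highest values in them. The summed markers of thalamic neurons reached 587 CPM in zQ175 mouse 1 and at most 181 CPM in the other mice, and those of cortical excitatory neurons reached 319 CPM in zQ175 mouse 5 and at most 93.0 CPM in the others. The cortical markers also differed by genotype, with sums of 59.3 to 319 CPM in zQ175 mice, all above the 22.6 to 55.4 CPM of WT and the 24.4 to 54.1 CPM of zQ175:CK2a'(+/-) mice, beside 23.0 to 61.1 CPM in CK2a'(+/-) mice. All 5 were higher in zQ175 than in WT (median log2 fold change 1.61, 1 past the threshold) and none was at 0, and their part in the differences of members between zQ175 and WT was not tested beyond the fits without zQ175 mice 1 and 5. Endothelial markers summed to 91.0 to 154 CPM, and fibroblast and meningeal markers to 6.18 to 23.8 CPM.

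Per length, the collagen genes spanned more than 2 orders of magnitude. Levels between genes are compared as RPKM, the CPM divided by the exon length in kilobases that the authors deposited. Col6a1, a chain of the beaded filament, was highest with a mean of 10.4 RPKM over 18 mice, followed by Col4a2 (5.35) and then by Col11a2 (3.93), Col9a3 (3.53), Col4a1 (3.53) and Col16a1 (3.50). Those 6 genes lay at or above 3 RPKM, while 5 lay between 1 and 3, 19 between 0.3 and 1, and 12 below 0.3. Col9a3 owed its place to the 4 libraries high in Ttr, since its mean was 2.32 RPKM in the other 14 mice, where Col25a1 (3.01 RPKM) was among the 6 genes at or above 3 RPKM instead. The 4 genes after Col4a2 differed less in their means than single mice of one gene did, since Col11a2 alone ranged from 2.16 to 5.90 RPKM. The beaded filament chains held 27.7% of the summed RPKM of the members, the fibril-associated chains 21%, the basement membrane chains 19.2% and the fibrillar chains 18.2%. In the 14 mice low in Ttr these shares were 28.2%, 19.7%, 19.7% and 19.0%. The transmembrane collagens held 8.42%, nearly all of it Col25a1 (3.00 RPKM), a neuronal membrane collagen whose shed fragment binds amyloid β, and Col23a1 (0.840 RPKM). Col1a1, Col1a2 and Col3a1, the chains of the fibers that fill connective tissue, were low, with 0.504, 0.330 and 0.0881 RPKM. The summed level of all members was 382 ± 65.4 CPM in WT, 349 ± 28.5 in zQ175, 360 ± 42.9 in CK2a'(+/-) and 345 ± 40.6 in zQ175:CK2a'(+/-) mice (SD, n = 5, 5, 3 and 5), and the ranges of the genotypes overlapped. The beaded filament chains summed to 96.8 ± 20.7 CPM in WT, 68.0 ± 25 in zQ175, 84.7 ± 17.5 in CK2a'(+/-) and 70.2 ± 10.9 in zQ175:CK2a'(+/-) mice, and the basement membrane chains to 65.6 ± 14.4, 73.9 ± 11.9, 66.4 ± 8.43 and 70.1 ± 15 CPM in the same order. These sums were not tested.

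**Figure D1:**
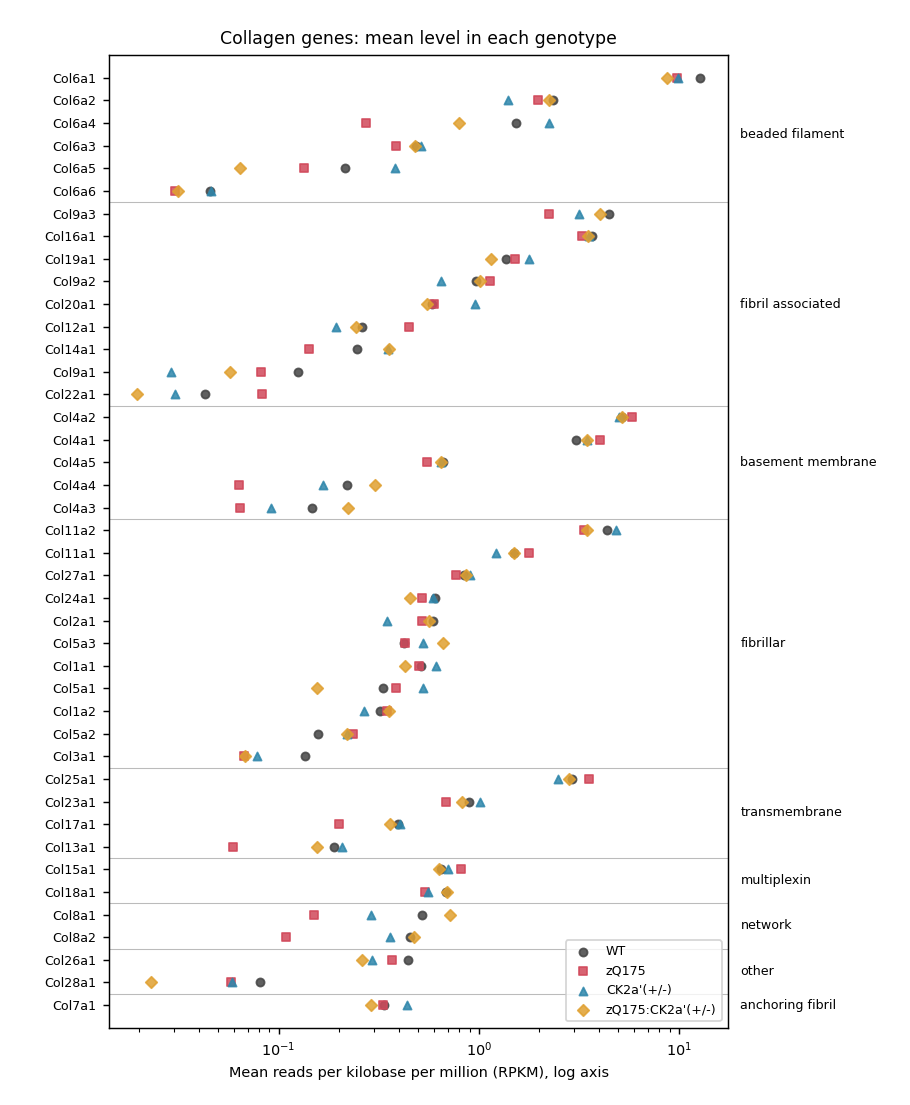
Mean level of each of the 42 collagen genes in each genotype, in RPKM on a log axis, with genes grouped by the kind of collagen and 1 symbol per genotype. Col6a1 is the highest gene in every genotype, whereas Col6a4, Col4a3, Col4a4, Col8a1 and Col8a2 have their lowest mean in zQ175 mice.

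Of the 42 members, 41 passed edgeR's filter on low counts, and Col28a1 did not. The median SD between mice of a genotype was 0.563 on the log2 scale for members and 0.336 for all 20914 genes tested, at a median level of 1.94 log2 CPM for members and 2.89 for all genes.

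Col6a4 (ENSMUSG00000032572, GRCm38 chr9:105989454-106096783, minus strand), an α chain of type VI collagen, had the clearest difference between the zQ175 and WT groups. The 300 bases around its start in RefSeq (250 before to 50 after, GRCm38.p6 chr9:106096642-106096941, minus strand) are shown because this gene carries that result. Capitals mark the CCAAT box (CCAAT) and the GC box (GGGCGG), each searched on both strands, so that they can also appear as ATTGG and CCGCCC. The TATA box (TATAAA) was searched in the same way and these letters were not in this window.
Col6a4: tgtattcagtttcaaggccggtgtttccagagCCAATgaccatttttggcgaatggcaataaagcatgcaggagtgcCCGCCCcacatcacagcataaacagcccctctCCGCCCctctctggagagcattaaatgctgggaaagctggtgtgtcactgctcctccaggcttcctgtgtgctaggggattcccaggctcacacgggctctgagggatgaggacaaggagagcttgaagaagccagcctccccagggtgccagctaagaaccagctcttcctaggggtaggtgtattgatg
The window held 1 CCAAT box and 2 GC boxes, which occur in 37.4% and 35.7% of all 32851 such windows, while TATAAA occurs in 13.6%.

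In WT mice 1 to 5 Col6a4 measured 22.8, 21.7, 15.4, 3.24 and 2.55 CPM. In zQ175 mice 1 to 5 it measured 0.984, 2.49, 2.71, 1.58 and 3.87 CPM. WT mice 1, 2 and 3 lay far above every zQ175 mouse, and WT mice 4 and 5 lay among the zQ175 mice, so the groups overlapped. The level was lower in zQ175 by a log2 fold change of -2.49 (SE 0.502, edgeR adjusted p = 0.0469), a 5.62-fold difference. In bulk tissue, fewer cells of a type and less RNA per cell cannot be told apart. The call was lost without any of 3 single libraries while the fold change stayed similar. The adjusted p was 0.119 without WT mouse 1, 0.155 without WT mouse 3 and 0.106 without zQ175 mouse 5, with log2 fold changes of -2.21, -2.42 and -2.76. In these 3 fits 10, 0 and 0 of all genes passed, against 230 in all mice. The adjusted p was 0.153 when only the 2 groups entered the fit, where 0 of all genes passed, and 0.0579 with the Xist level as a covariate for sex. Without the 4 libraries high in Ttr the log2 fold change was -1.96 (adjusted p = 0.496), in a fit in which 1 of all genes passed.

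In the 3 CK2a'(+/-) mice Col6a4 measured 16.4, 21.9 and 19.4 CPM, within the range of the 3 high WT mice. In zQ175:CK2a'(+/-) mice 1 to 5 it measured 9.01, 3.59, 6.31, 5.10 and 9.92 CPM, and 4 of these 5 lay above every zQ175 mouse. The difference between zQ175 and zQ175:CK2a'(+/-) mice was a log2 fold change of -1.55 (SE 0.502) and did not pass (edgeR adjusted p = 0.597), although it passed when no filter on low counts was used, where 51 of 37580 genes passed.

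Among the WT mice, the 8 summed markers of striatal projection neurons were high and low in the same mice as Col6a4. They reached 3429, 4440 and 3082 CPM in WT mice 1, 2 and 3 but 2077 and 2071 CPM in WT mice 4 and 5. In zQ175 mice they lay between 1011 and 2090 CPM, in CK2a'(+/-) mice between 3147 and 4724 CPM, and in zQ175:CK2a'(+/-) mice between 1717 and 2521 CPM. Within the HD genotypes this order did not hold in every mouse, since zQ175:CK2a'(+/-) mouse 5 had the most Col6a4 and the lowest sum of its group. All 8 were lower in zQ175 than in WT, 3 of them past the threshold, and none was at 0. The part of these neurons in the Col6a4 difference was not tested.

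**Figure D2:**
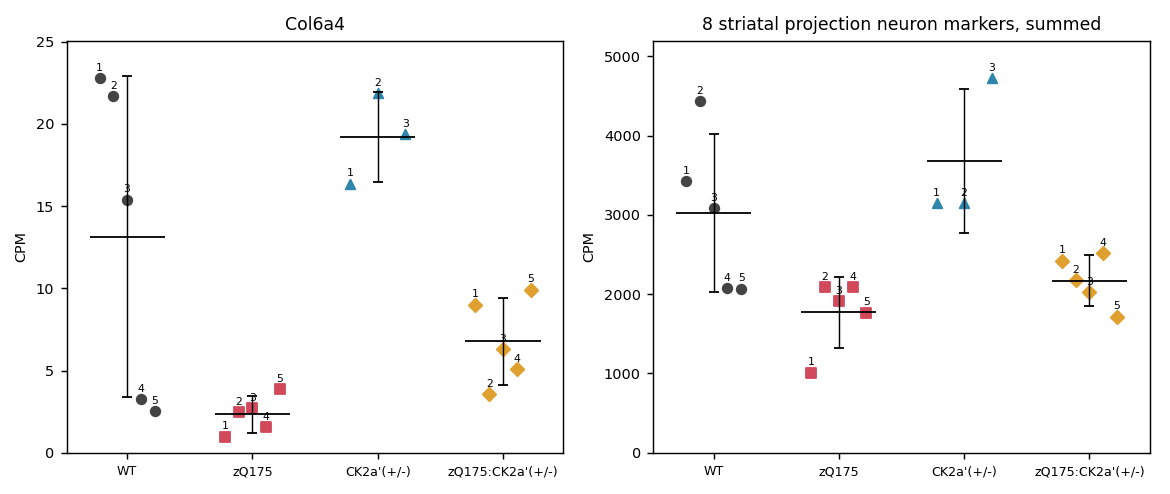
Col6a4 (left) and the sum of 8 striatal projection neuron markers (right) in CPM for each mouse, with the mouse number beside each point, the mean as a horizontal line and the SD as a bar. In both panels WT mice 1, 2 and 3 lie above WT mice 4 and 5, which sit at the level of the zQ175 mice.

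Col6a4 was the only member of 41 that passed between zQ175 and WT mice with edgeR, where 1.1% of all genes tested passed and 0.712% passed with a lower level in zQ175. DESeq2 called Col6a4 (adjusted p = 0.00228) and Col4a1, against 2.28% of the 37559 genes to which it gave a p. Those genes include low ones that edgeR's filter left out, so that share is not on the same footing as the members. At an unadjusted p under 0.05 edgeR had 6 of 41 members (14.6%) against 13.9% of all genes, close to the background. Leaving out single libraries moved that count both ways. It was 11 of 41 (26.8%) against 15.1% of all genes without WT mouse 2 and 10 of 41 (24.4%) against 13.7% without zQ175:CK2a'(+/-) mouse 2. It fell to 4 of 41 (9.76%) without WT mouse 3 and without zQ175 mouse 1, against 11.4% and 12.7% of all genes. With no filter on low counts it was 11 of 42 (26.2%) against 11.5%. The members' median log2 fold change was -0.25 and that of all genes was 0.00, with 14 members higher and 27 lower in zQ175. That median was -0.01 without the 4 libraries high in Ttr, with 20 members higher and 21 lower. No member had all zQ175 mice on one side of all WT mice, as 2.44% of all genes did.

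Col4a1 (ENSMUSG00000031502, GRCm38 chr8:11198423-11312826, minus strand) and Col4a2 code for the 2 chains of the common type IV collagen of vascular basement membranes. The genes point away from each other and their annotated ends overlap by 22 bases, so that reads there could be assigned to either. The window around the RefSeq start of Col4a1 (chr8:11312777-11313076, minus strand) is shown because it also holds the annotated start of Col4a2, with capitals as for Col6a4.
Col4a1: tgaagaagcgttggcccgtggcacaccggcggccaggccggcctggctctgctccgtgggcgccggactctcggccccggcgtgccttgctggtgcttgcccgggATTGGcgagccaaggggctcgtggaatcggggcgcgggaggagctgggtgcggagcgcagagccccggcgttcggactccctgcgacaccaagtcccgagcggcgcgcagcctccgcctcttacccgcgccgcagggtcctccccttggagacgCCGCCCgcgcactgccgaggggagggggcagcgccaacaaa
It held 1 CCAAT box and 1 GC box.

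Col4a1 measured 21.4, 19.8, 29.3, 20.4 and 24.0 CPM in WT mice 1 to 5. In zQ175 mice it measured 33.3, 24.6, 35.9, 26.0 and 30.8 CPM. Every zQ175 mouse lay above all WT mice but mouse 3, which lay among them. The log2 fold change was 0.39 (SE 0.128), which passed in DESeq2 (adjusted p = 0.0865) but not in edgeR (adjusted p = 0.168), and edgeR gave 0.49 without the 4 libraries high in Ttr. Levels were 24.6 to 27.1 CPM in CK2a'(+/-) and 22.2 to 30.4 CPM in zQ175:CK2a'(+/-) mice, between those of the other genotypes with overlap. Col4a2 had a log2 fold change of 0.18 (SE 0.131, edgeR adjusted p = 0.588) and ranged from 26.2 to 42.3 CPM in WT and from 31.9 to 47.5 CPM in zQ175 mice. The endothelial markers, whose cells lie on this membrane, summed to 91.0 to 122 CPM in WT and 100.3 to 135 CPM in zQ175 mice, with 1 of 6 higher and 5 lower in zQ175, none past the threshold and none at 0. The pericyte and smooth muscle markers, of the other cells of the vessel wall, summed to 98.8 to 114 CPM in WT and 83.5 to 142 CPM in zQ175 mice, with 5 of 8 higher and 3 lower in zQ175 (median log2 fold change 0.19), none past the threshold and none at 0. Their highest and lowest zQ175 mice, 3 and 2, were also those of Col4a1, but CK2a'(+/-) mice had sums of 118 to 128 CPM, above 4 of the 5 zQ175 mice, and WT mouse 2 had the lowest Col4a1 and the second highest sum of its group. The part of both lists in the Col4a1 values was not tested.

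Other members with small p between zQ175 and WT did not pass. Col13a1, a transmembrane collagen of cell adhesion sites, lay between 0.278 and 1.70 CPM in WT and between 0.116 and 0.396 CPM in zQ175 mice, with a log2 fold change of -1.64 (SE 0.614, edgeR adjusted p = 0.232). Its mean was 0.868 CPM in all WT mice, 0.564 CPM in the 3 WT mice low in Ttr and 0.272 CPM in zQ175 mice. Col12a1, a fibril-associated collagen, measured 2.80 to 4.45 CPM in WT and 3.77 to 11.4 CPM in zQ175 mice, with a log2 fold change of 0.78 (SE 0.299, edgeR adjusted p = 0.241), and its highest value was that of zQ175 mouse 1.

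A few network and type IV chains were highest in the libraries high in Ttr. Col8a1 and Col8a2 code for the chains of a hexagonal network known from the cornea and from vessels, and Col4a3 and Col4a4 code for type IV chains known from the filter of the kidney. Together with Col9a3, a chain of the fibril-associated type IX collagen, these 5 of 41 members (12.2%) had their 4 highest values of 18 in the 4 libraries high in Ttr, which 0.521% of all genes tested did. They were found in these values and are described without a test. The start windows of 3 of them are shown because the genes had the same 4 highest libraries, with capitals as above: Col4a4 (chr1:82586800-82587099, minus strand), whose window also holds the annotated start of Col4a3, Col8a1 (chr16:57754688-57754987, minus strand) and Col8a2 (chr4:126286544-126286843, plus strand).
Col4a4: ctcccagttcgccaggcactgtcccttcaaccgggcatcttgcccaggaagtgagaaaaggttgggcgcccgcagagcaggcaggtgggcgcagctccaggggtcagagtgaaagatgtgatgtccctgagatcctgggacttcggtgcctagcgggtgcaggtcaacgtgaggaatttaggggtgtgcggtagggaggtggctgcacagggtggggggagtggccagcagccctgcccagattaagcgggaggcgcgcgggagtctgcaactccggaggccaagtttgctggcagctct
Col8a1: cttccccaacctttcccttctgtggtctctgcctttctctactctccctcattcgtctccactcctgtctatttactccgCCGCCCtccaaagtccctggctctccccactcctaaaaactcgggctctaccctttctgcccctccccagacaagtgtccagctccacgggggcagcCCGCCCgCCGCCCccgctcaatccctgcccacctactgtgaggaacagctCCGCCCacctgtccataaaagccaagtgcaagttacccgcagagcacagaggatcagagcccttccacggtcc
Col8a2: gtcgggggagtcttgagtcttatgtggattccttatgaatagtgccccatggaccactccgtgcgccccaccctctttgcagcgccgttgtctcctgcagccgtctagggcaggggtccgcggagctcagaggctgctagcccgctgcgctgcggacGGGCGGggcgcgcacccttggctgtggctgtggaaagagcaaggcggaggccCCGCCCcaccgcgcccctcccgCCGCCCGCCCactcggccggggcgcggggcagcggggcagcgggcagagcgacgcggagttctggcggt
The Col8a1 and Col8a2 windows held 4 GC boxes each, none of the 3 motifs was in the Col4a4 window, and TATAAA was in none of the 3. Among all members, 36 start windows of 33 genes were listed, of which 22 held a GC box, 13 a CCAAT box and 4 a TATA box, and their median GC content was 60% against 52.7% in all windows.

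Col8a1 measured 10.7, 1.01, 6.47, 1.73 and 0.556 CPM in WT mice 1 to 5 and 4.90, 1.01 and 0.934 CPM in CK2a'(+/-) mice 1 to 3. In zQ175:CK2a'(+/-) mice 1 to 5 it measured 0.450, 24.8, 1.16, 1.11 and 0.541 CPM, and in zQ175 mice 3.00, 0.927, 0.738, 0.989 and 0.215 CPM. Each genotype but zQ175 held high and low mice, and every high mouse was one of the 4 libraries high in Ttr. Col8a2 ranged from 3.74 to 9.33 CPM in these 4 and from 0 to 0.927 CPM in the other 14. Col4a3 ranged from 2.17 to 8.97 CPM in the 4 and from 0 to 1.14 CPM in the others, and Col4a4 from 3.18 to 12.6 CPM and from 0.0579 to 1.53 CPM. Col9a3 was present in every mouse, at 22 to 42.6 CPM in the 4 and 4.75 to 14.5 CPM in the others.

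None of the 5 passed between genotypes, and their differences moved with these libraries. Between zQ175 and WT the log2 fold change of Col8a1 was -1.76 in all mice and 0.11 without the 4 libraries. That of Col8a2 went from -2.02 to -0.18, that of Col4a4 from -1.76 to 0.75, that of Col4a3 from -1.16 to 1.80 and that of Col9a3 from -1.0 to -0.28. The 6 choroid plexus markers summed to 976 to 3085 CPM in the 4 libraries and to 11.5 to 21.7 CPM in the other 14, with no marker at 0 in every mouse of a genotype. Of 7 fibroblast and meningeal markers, 1 (Igf2) also had its 4 highest values there. The part of choroid plexus tissue in these values was not tested beyond the fits without the 4 libraries and those with Ttr as covariate, in which the log2 fold change between zQ175 and WT was 0.58 for Col8a1, 0.42 for Col8a2, 0.63 for Col4a4, 1.74 for Col4a3 and 0.03 for Col9a3.

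**Figure D3:**
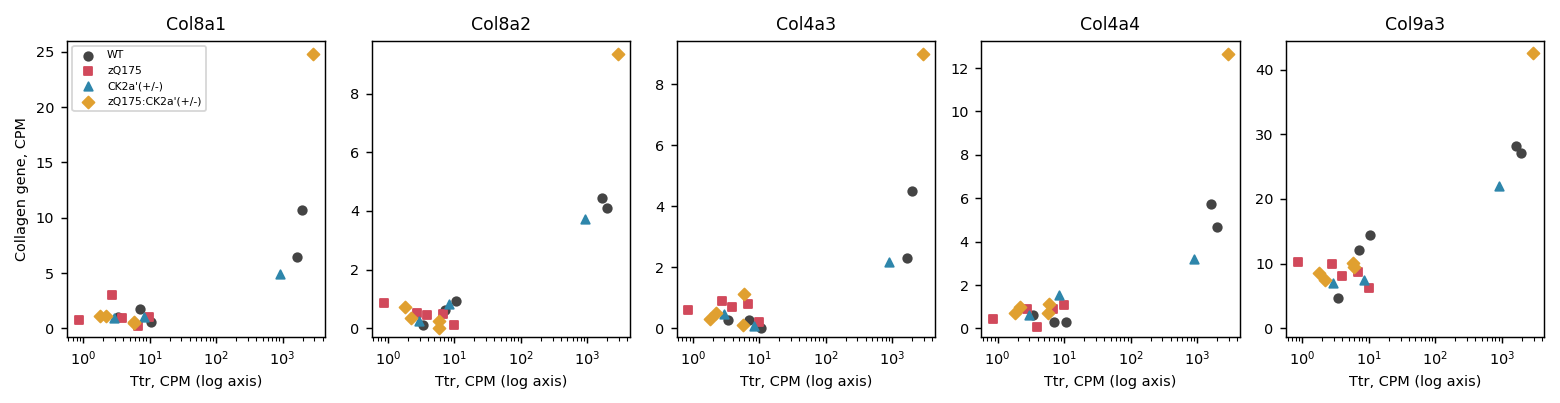
Level of Col8a1, Col8a2, Col4a3, Col4a4 and Col9a3 in CPM against that of Ttr in CPM on a log axis, 1 point per mouse and 1 symbol per genotype. The 4 mice far to the right are the 4 highest of 18 in each panel, and the other 14 mice form a cluster near the floor or, for Col9a3, below 15 CPM.

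Between zQ175 and zQ175:CK2a'(+/-) mice none of 41 members passed with edgeR, where 0.0143% of all genes passed (0.00956% higher and 0.00478% lower in zQ175), while 10 of 41 (24.4%) had an unadjusted p under 0.05 against 6.27% of all genes. Of these 10, 5 were higher and 5 lower in zQ175. Without the 4 libraries high in Ttr there were 5 of 41 (12.2%) against 4.82% of all genes, and without zQ175:CK2a'(+/-) mouse 2 alone 5 of 41 against 5.19%. DESeq2 called Col5a1, against 0.104% of all genes. The members' median log2 fold change was -0.02, and no member separated the genotypes without overlap, as 1.14% of all genes did.

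Col5a1 (ENSMUSG00000026837, GRCm38 chr2:27886425-28039514, plus strand) codes for a type V chain that starts and narrows collagen fibrils. It measured 3.00, 1.45, 4.12, 3.30 and 4.73 CPM in zQ175 mice 1 to 5. In zQ175:CK2a'(+/-) mice it measured 1.35, 1.58, 0.857, 0.955 and 1.92 CPM. All zQ175 mice but mouse 2 lay above every zQ175:CK2a'(+/-) mouse. The log2 fold change was 1.32 (SE 0.331), with an adjusted p of 0.419 in edgeR and of 0.0975 in DESeq2. Without the 4 libraries high in Ttr edgeR gave 1.38 (adjusted p = 0.968), and without zQ175 mice 1 and 5 it gave 1.15 (adjusted p = 0.999). With the Xist level as a covariate for sex it gave 1.13 (adjusted p = 0.610). In each genotype the mouse with the most Col5a1 had little Xist (0.498 to 8.17 CPM), and the part of sex was not tested beyond that covariate. In the same comparison all 5 cortical markers (median log2 fold change 1.45) and all 4 thalamic markers (1.21) were higher in zQ175, none past the threshold and none at 0. The cortical sums did not overlap between these groups, and the thalamic sums were 32.4 to 587 CPM in zQ175 and 27.0 to 156 CPM in zQ175:CK2a'(+/-) mice. The part of either in the Col5a1 values was not tested beyond the fit without zQ175 mice 1 and 5.

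WT mice measured 4.63, 1.90, 3.00, 2.04 and 2.59 CPM of Col5a1, and CK2a'(+/-) mice 5.61, 3.41 and 4.47 CPM. CK2a'(+/-) mice lay in the upper part of the WT range or above it, whereas 4 of the 5 zQ175:CK2a'(+/-) mice and zQ175 mouse 2 lay below every WT mouse. The log2 fold change between CK2a'(+/-) and WT was 0.66 (SE 0.355, edgeR adjusted p = 0.999). The interaction, the difference of zQ175:CK2a'(+/-) from CK2a'(+/-) minus that of zQ175 from WT, was -1.98 on the log2 scale (SE 0.483) and did not pass in edgeR (adjusted p = 0.732) but passed in DESeq2 (adjusted p = 0.0944). With the Xist level as a covariate for sex the interaction was -1.65 (edgeR adjusted p = 0.997). An antisense gene that overlaps Col5a1 had 0.0517 CPM.

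Col14a1 had the next smallest p in this comparison and Col19a1 in the interaction, and both are fibril-associated collagens. Col14a1 measured 0.469, 2.09, 0.799, 0.791 and 0.807 CPM in zQ175 mice 1 to 5 and lay between 1.62 and 3.30 CPM in zQ175:CK2a'(+/-) mice. Only zQ175 mouse 2 overlapped the other group, and the log2 fold change was -1.33 (SE 0.388, edgeR adjusted p = 0.502). Col19a1, which interneurons of the brain express, measured 8.34, 12.2, 10.2, 10.8 and 11 CPM in zQ175 and 9.40, 7.32, 6.74, 7.80 and 8.53 CPM in zQ175:CK2a'(+/-) mice. Its log2 fold change was 0.40 (SE 0.149, edgeR adjusted p = 0.644), and its interaction was -0.80 (SE 0.224, edgeR adjusted p = 0.811). Col6a2 followed in the interaction with 0.92 (SE 0.361, edgeR adjusted p = 0.916).

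Between zQ175:CK2a'(+/-) and WT mice no member passed with either tool, against 0.0143% of all genes in edgeR and 0.327% in DESeq2, and 3 of 41 (7.32%) had an unadjusted edgeR p under 0.05 against 9.13% of all genes. Without zQ175:CK2a'(+/-) mouse 2 there were 6 (14.6%) against 8.35%, and without WT mouse 5, zQ175 mouse 1 or zQ175:CK2a'(+/-) mouse 5 there were 5 (12.2%) against 9.15%, 10.1% and 7.82%. All 3 were lower with both changes: Col5a1 (log2 fold change -1.09, SE 0.330), Col6a5 (-1.74, SE 0.685) and Col26a1 (-0.75, SE 0.346), with edgeR adjusted p of 0.330, 0.443 and 0.525. Col6a5, a type VI chain whose gene lies 28810 bases from Col6a4, was the member without overlap, which 1.84% of all genes were. It measured 4.63, 1.01, 0.953, 0.977 and 2.50 CPM in WT and 0.563, 0.861, 0.367, 0.743 and 0.481 CPM in zQ175:CK2a'(+/-) mice. The gap between the groups was small beside the spread of the WT mice. The members' median log2 fold change was -0.07. In the same comparison all 8 striatal projection neuron markers (median log2 fold change -0.47), all 4 thalamic (-0.22) and all 4 astrocyte markers (-0.13) were lower. The other lists held higher and lower markers, and none passed. Their part in the values of the 3 members was not tested.

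Between CK2a'(+/-) and WT mice no member passed with either tool, against 0.0143% of all genes in edgeR (0.00478% higher and 0.00956% lower in CK2a'(+/-)) and 0.0293% in DESeq2, and 4 of 41 (9.76%) had an unadjusted edgeR p under 0.05 against 4.48% of all genes. Without CK2a'(+/-) mouse 2 there was 1 (2.38%) against 3.27%, without CK2a'(+/-) mouse 3 or WT mouse 4 there were 2 against 5.24% and 3.77%, and with the replicate number as a block 0 against 3.39%. Col6a2 and Col2a1 were lower (log2 fold changes -0.74, SE 0.277, and -0.76, SE 0.299), Col19a1 and Col20a1 higher (0.40, SE 0.168, and 0.72, SE 0.335), each with an edgeR adjusted p of 0.999. Col6a2, the second of the type VI chains in level, measured 17.9, 14.0, 12.7, 26.9 and 26.0 CPM in WT and 11, 10.7 and 13.5 CPM in CK2a'(+/-) mice, with overlap only at WT mouse 3. Col2a1, the type II chain of cartilage, lay between 3.07 and 6.81 CPM in WT and between 2.68 and 3.54 CPM in CK2a'(+/-) mice. Col20a1, a fibril-associated collagen, was the member without overlap, which 3.2% of all genes were, with 5.56, 4.73 and 4.54 CPM in CK2a'(+/-) mice against 1.78 to 4.43 CPM in WT mice. An overlapping gene on the same strand, BX649560.1, had 4.58 CPM, so reads of Col20a1 are uncertain. Marker sums also differed between these groups, without overlap for the endothelial markers (123 to 154 CPM in CK2a'(+/-) and 91.0 to 122 CPM in WT, 5 of 6 higher), the pericyte and smooth muscle markers (118 to 128 and 98.8 to 114 CPM, 5 of 8 higher) and the oligodendrocyte precursor markers (66.2 to 70.1 and 76.7 to 85.9 CPM, 3 of 3 lower). All 8 striatal projection neuron markers were higher (3147 to 4724 and 2071 to 4440 CPM). None of these markers passed and none was at 0, and their part in the values of the 4 members was not tested. In the interaction no member passed with edgeR, where 0.00478% of all genes passed, 4 of 41 had an unadjusted p under 0.05 against 5.39% of all genes, and DESeq2 called Col5a1, against 0.0506% of all genes. Without CK2a'(+/-) mouse 1 there were 7 against 5.05%. The comparisons share their WT, zQ175 or zQ175:CK2a'(+/-) mice and are not independent of each other.

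**Figure D4:**
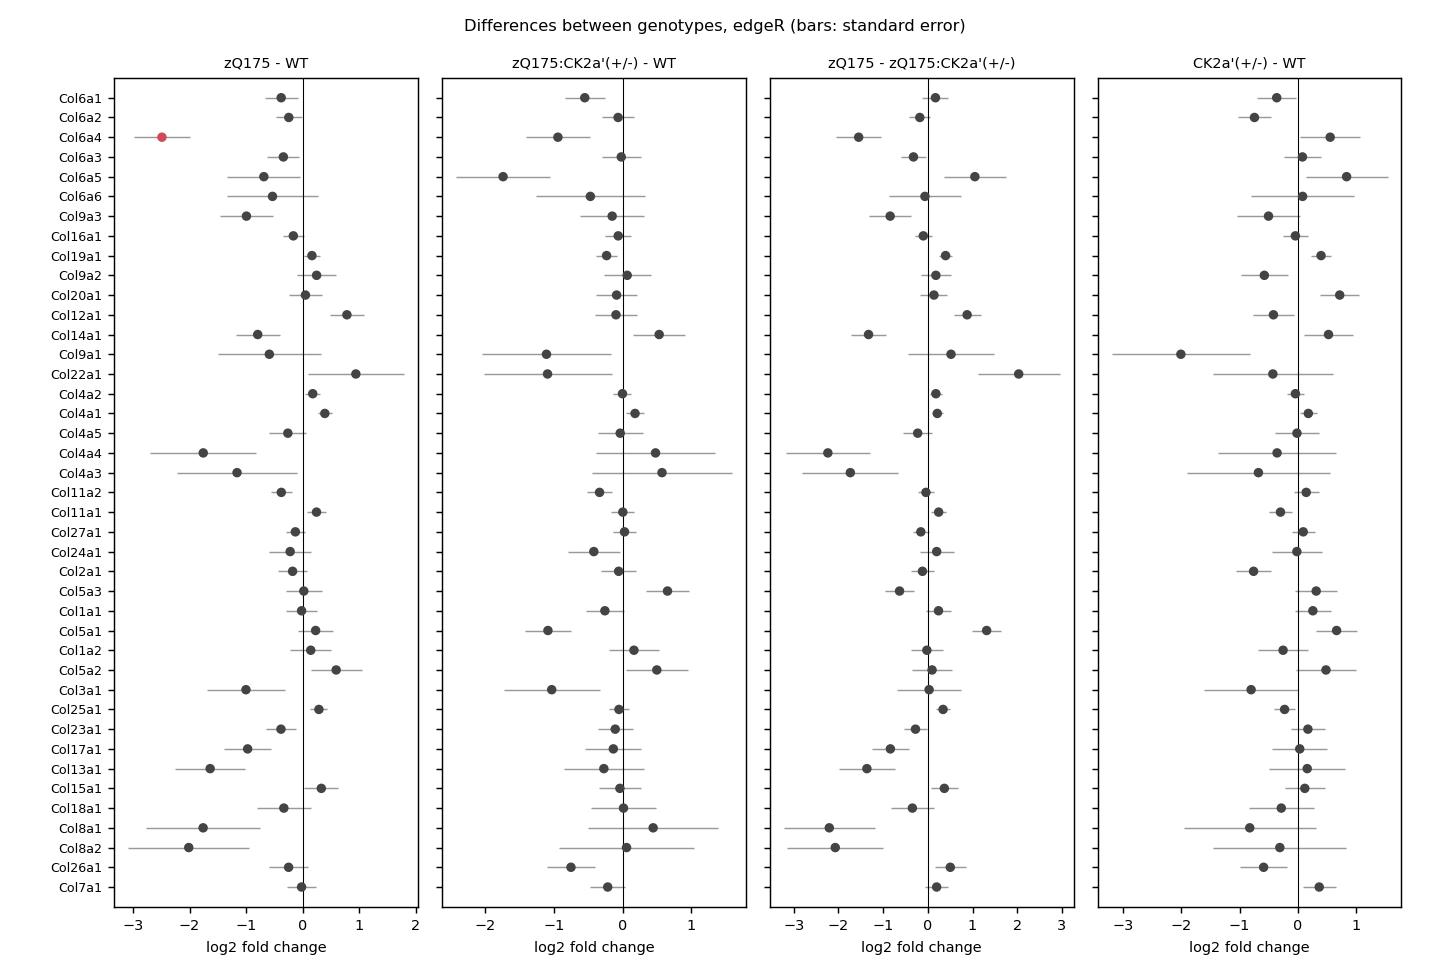
Log2 fold change of each of the 41 collagen genes tested in 4 comparisons (edgeR), with the first group minus the second above each panel and bars for the standard error. Col6a4 between zQ175 and WT, in red, is the only member past an adjusted p of 0.1, and the members with the widest bars are low genes or genes highest in the libraries high in Ttr.

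Of the highest values of single members, 19 of 41 belonged to 2 mice. zQ175 mouse 1, the mouse with the high thalamic markers, had the highest value of 18 in 10 of 41 members (24.4%) and in 10.7% of all genes, and zQ175:CK2a'(+/-) mouse 2, the mouse with the most Ttr, in 9 members (22%) and in 6.52% of all genes. CK2a'(+/-) mouse 1, also high in Ttr, had the highest value in 5 members (12.2%) and in 2.56% of all genes. The 10 members of zQ175 mouse 1 were Col1a2, Col4a2, Col9a1, Col9a2, Col11a1, Col12a1, Col15a1, Col16a1, Col25a1 and Col26a1. Col25a1 measured 70.5 CPM in that mouse and 36.5, 44.2, 41.9 and 38.8 CPM in the other zQ175 mice, against 32.5 to 41.6 CPM in WT mice. Its log2 fold change between zQ175 and WT was 0.29 in all mice (SE 0.152) and 0.10 without zQ175 mice 1 and 5. All 4 thalamic markers were detected in every genotype, with sums of 32.4 to 587 CPM in zQ175 and 31.3 to 142 CPM in WT mice, and the part of thalamic tissue in the other members' values was not tested.

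The chains of connective tissue fibers and the other members named for their level, Col4a1 apart, passed with neither tool between zQ175 and WT. Col1a1, whose chain pairs with that of Col1a2 in type I collagen, lay between 1.59 and 5.24 CPM in WT and between 2.52 and 4.64 CPM in zQ175 mice, with a log2 fold change of -0.02 (SE 0.271). Col1a2 had 0.14 (SE 0.364) and Col3a1, the type III chain of elastic tissues, -1.0 (SE 0.694). Col6a1 had -0.38 (SE 0.289), with 42.4 to 79.5 CPM in WT and 12.2 to 65.4 CPM in zQ175 mice. Col18a1, whose fragment is endostatin, had -0.33 (SE 0.480), and Col15a1, its relative in vessel walls, had 0.33 (SE 0.302). Col7a1, the anchoring fibril of skin, had -0.02 (SE 0.251). All of these had an edgeR adjusted p of 0.561 or more. The mean of Col18a1 was 4.84 CPM in all WT mice, 2.91 CPM in the 3 WT mice low in Ttr and 3.802 CPM in zQ175 mice. The direction of its difference thus depended on the WT mice high in Ttr. Col11a2, a fibrillar chain of type XI collagen, measured 30.2 ± 7.72 CPM in WT, 23.2 ± 3.92 in zQ175, 33.3 ± 1.44 in CK2a'(+/-) and 23.8 ± 7.09 in zQ175:CK2a'(+/-) mice (SD), and its log2 fold change between zQ175 and WT was -0.38 (SE 0.187, edgeR adjusted p = 0.374). Its partner Col11a1 had 0.24 (SE 0.168), Col16a1, a fibril-associated collagen, -0.17 (SE 0.189), and Col23a1, a transmembrane collagen, -0.38 (SE 0.258), with edgeR adjusted p of 0.559, 0.749 and 0.545. Col28a1, a minor collagen not tested, reached 0.747 CPM at most.

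Chains that assemble into one molecule were followed across mice in 10 pairs. In 4 of the 10 pairs the levels were correlated over 18 mice at an adjusted permutation p under 0.05, but in 2 of these 4, Col4a3 with Col4a4 and Col8a1 with Col8a2, and in Col9a1 with Col9a3, which was not among them, a chain was split into clusters by the libraries high in Ttr. Within the 14 other mice these pairs had a Pearson r of 0.0359, 0.200 and -0.0352. Col4a1 and Col4a2 had r = 0.677 (rho = 0.602) over 18 mice with an adjusted permutation p of 0.0067 for r and 0.0465 for rho, and r = 0.713 within the 14 mice (rho = 0.596, adjusted permutation p of 0.0203 and 0.134). Col6a1 and Col6a2 had r = 0.620 (rho = 0.476) with adjusted permutation p of 0.0124 and 0.118, and r = 0.791 within the 14 mice (rho = 0.679, adjusted permutation p of 0.006 and 0.0928). Without the 2 mice farthest from the median of the first chain r fell to 0.514 and 0.213 (adjusted permutation p = 0.157 and 0.712), and neither relation then passed. This step also narrows the range of the first chain. On deviations from the genotype means r was 0.670 and 0.706, and another pair passed, Col11a1 with Col11a2, whose r went from 0.128 to 0.543 (adjusted permutation p = 0.0389) but whose rho of 0.375 did not pass (adjusted permutation p = 0.252). Col1a1 and Col1a2 had r = 0.287 (rho = 0.0361, adjusted permutation p = 0.496 and 0.888). Its r was 0.147 in the 14 mice and -0.671 when the 2 mice farthest from the median were also left out (rho = -0.706, adjusted permutation p = 0.168 and 0.126). Over all 820 pairs of members in the 14 mice the median r was 0.0565, with quartiles of -0.181 and 0.275.

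**Figure D5:**
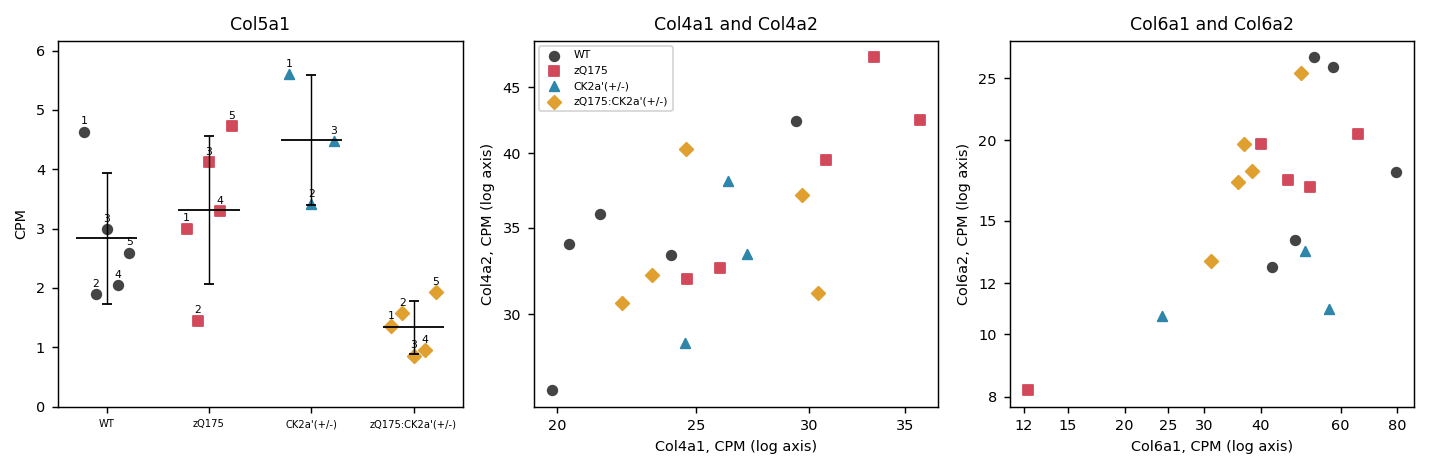
Col5a1 in CPM for each mouse, with mean and SD per genotype (left), and the paired chains Col4a1 and Col4a2 (middle) and Col6a1 and Col6a2 (right) in CPM on log axes, 1 point per mouse. zQ175:CK2a'(+/-) mice are low in Col5a1, and in the right panel zQ175 mouse 1 lies alone at the lower left with 12.2 and 8.20 CPM.

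Among the members, 7 pairs of neighboring genes lay within 100000 bases. Col4a3 and Col4a4 on chromosome 1 point away from each other 71 bases apart. Col6a4, Col6a5 and Col6a6 lie in a row on chromosome 9, with 28810 and 27917 bases between them, Col3a1 and Col5a2 converge over 24614 bases, and Col19a1 and Col9a1 converge over 9205 bases. Col6a1 and Col6a2 on chromosome 10 point the same way 85161 bases apart. Neighbors need not share a level, as Col19a1 had a mean of 1.42 RPKM and Col9a1 of 0.0780 RPKM.

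The genes that make, crosslink, sense and break down collagen were also compared between the genotypes. Of 67 such genes and matrix partners listed, 61 were tested and none passed with edgeR in any of the 4 comparisons or the interaction, with 7, 6, 3, 2 and 7 at an unadjusted p under 0.05 for zQ175 against WT, zQ175:CK2a'(+/-) against WT, zQ175 against zQ175:CK2a'(+/-), CK2a'(+/-) against WT and the interaction. These are 11.5%, 9.84%, 4.92%, 3.28% and 11.5% of the 61, where all genes had 13.9%, 9.13%, 6.27%, 4.48% and 5.39%. Between zQ175 and WT 1.1% of all genes passed with edgeR. DESeq2 called 3 of the 67, all lower in zQ175 than in WT, against 2.28% of all genes to which it gave a p. It called none in the other comparisons. Ppib, the endoplasmic reticulum cyclophilin that helps the triple helix fold, had a log2 fold change of -0.30 (SE 0.0810, edgeR adjusted p = 0.105, DESeq2 adjusted p = 0.0385). P3h4, a partner of enzymes that hydroxylate collagen, had -0.70 (SE 0.190, edgeR adjusted p = 0.104, DESeq2 adjusted p = 0.0278). Loxl1, a lysyl oxidase that crosslinks elastin and collagen, had -1.05 (SE 0.341, edgeR adjusted p = 0.162, DESeq2 adjusted p = 0.0754). In the same comparison all 8 striatal projection neuron markers (median log2 fold change -0.66) and all 6 choroid plexus markers (-3.44) were lower in zQ175. All 5 cortical (1.61) and all 4 thalamic markers (0.98) were higher. The part of these tissues in the 3 genes was not tested. Of the 16 genes of chain modification and folding, 5 had an unadjusted edgeR p under 0.05 between zQ175 and WT, beside 1 of 11 for propeptide removal and crosslinking, 0 of 10 receptors, 0 of 7 genes of breakdown and 1 of 17 matrix partners. The lists were not tested against each other, and 13.9% of all genes had such a p.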

How the data were processed

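RNA-seq reads (paired-end) from 18 striatal libraries were trimmed with Trimmomatic and aligned to GRCm38 with HISAT2 2.1.0 by the authors, who removed duplicated mappings and poorly mapped reads before counting, and deposited the raw count of reads per gene from Subread 1.6.2, without normalization. Reads shared by similar genes are thereby mostly left out. The deposited exon length per gene (other values, in bases) was used for RPKM. The kit was stranded, and the strand setting of the counting is not given in the sources used here. Genes were named through Ensembl identifiers, of which 55154 matched a symbol, and the coordinates of all 42 members equal those of GENCODE M21.

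The tests used edgeR 4.0.16 under R 4.3.3, with TMM factors, filterByExpr (20914 genes) and quasi-likelihood tests in 1 fit of the 18 libraries with genotype as the only term. Benjamini-Hochberg adjustment ran over all genes tested and 0.1 was the threshold. The SE is the log2 fold change divided by the root of the F statistic. DESeq2 1.42.0, the tool of the study's methods, was an alternative. Its shares of all genes are over the 37559 genes with a DESeq2 p. These include low genes that edgeR's filter left out, so the shares are not on the same footing as the members. Log2 CPM used a prior count of 2. Correlations used 100000 permutations, two-sided, adjusted over 10 pairs. On simulated data edgeR recovered 83.0% of 200 genes changed in zQ175 against WT among 20277 genes. Those genes lay above a minimum level, were changed by the same fold up or down and had the spread typical of their level. Members vary more between mice than all genes do, so this share does not give the power for members. Libraries of a genotype correlated at 0.950 to 0.972, and each is 1 mouse.

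The members and lists were chosen with earlier results of these data known. Named with values were members that passed, the 3 with the smallest p in each comparison and the interaction, the 2 highest per length in each kind of collagen, and Col1a1, Col1a2, Col3a1, Col4a1, Col4a2, Col5a1, Col6a1, Col18a1, Col19a1 and Col25a1. Col4a3, Col4a4, Col12a1 and Col20a1 were added after their values were seen. Dcn and Lum stood in both the fibroblast markers and the matrix partners. Alternatives were other size factors, filters, samples, covariates and tests, and leaving out each mouse. Promoter windows are from RefSeq on GRCm38.p6.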

Additional observations from a re-analysis of the deposited data

Results flagged for a closer look

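In groups of 5 mice, a mouse was listed when its distance to the nearest other mouse took more than 0.71 of the group's range (Dixon's limit). Of 81 groups of the 27 named members, 10 held such a mouse (12.3%), as did 7.35% of the same groups over all genes tested, and for normally distributed values chance gives about 1 in 20 groups. In zQ175:CK2a'(+/-) mouse 2, one of the 4 mice high in Ttr, Col8a1 measured 24.8 CPM, Col8a2 9.33 CPM, Col9a3 42.6 CPM and Col18a1 10.6 CPM, and the nearest other mice of the genotype had 1.16, 0.743, 10.1 and 4.27 CPM. In zQ175 mouse 1, the mouse with the high thalamic markers, Col25a1 measured 70.5 CPM, Col1a2 9.09 CPM and Col8a1 3.00 CPM, against 44.2, 4.12 and 0.989 CPM in the nearest other mice. Col14a1 measured 2.09 CPM in zQ175 mouse 2 against 0.807 CPM in the next mouse. In WT mice, Col3a1 measured 3.15 CPM in mouse 4 and Col7a1 4.93 CPM in mouse 1, against 1.34 and 3.33 CPM in the next mice. All were the highest mice of their genotype. The part of choroid plexus or thalamic tissue in these values was not tested.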

How the results depend on the processing

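Between zQ175 and WT, 1 member passed in all mice, 2 with DESeq2, 0 in a fit of only the 2 groups, and 0 to 1 when each mouse was left out, with 0 without WT mouse 1, WT mouse 3 or zQ175 mouse 5. The fits chosen after seeing the data also gave 0: without the 4 libraries high in Ttr, with Ttr as covariate, and without zQ175 mice 1 and 5. In these last 3 fits the adjusted p of Col6a4 was 0.496, 0.159 and 0.245, and over all its alternatives it ranged from 0.000192 with no filter on low counts to 0.496. Between zQ175 and zQ175:CK2a'(+/-), 1 member passed with DESeq2 (Col5a1) and 1 with no filter on low counts (Col6a4), and in the interaction 1 passed with DESeq2 (Col5a1). The members' median log2 fold change between zQ175 and WT went from -0.25 to -0.013 without the 4 libraries and to 0.10 with Ttr as covariate. That between zQ175:CK2a'(+/-) and WT ranged from -0.22 without WT mouse 2 to 0.030 without WT mouse 3 over the mice left out. Of the paired chains, 4 pairs were correlated in all mice, 5 on deviations from the genotype means, 0 without the 2 mice farthest from the median and 2 without the 4 libraries, where the r of Col6a1 with Col6a3 turned to -0.108 and that of Col9a1 with Col9a3 to -0.0352. Leaving out the 2 farthest mice as well, that of Col1a1 with Col1a2 turned to -0.671 and that of Col4a3 with Col4a4 to -0.362. The cause of these changes was not tested. Of the other summary values 250 stayed within the limits set for them, and 19 moved. Over all genes, 230 passed between zQ175 and WT with edgeR, 855 with DESeq2, 451 with no filter on low counts, 98 with the replicate block and 1 without the 4 libraries. Leaving out single mice gave 0 (WT mouse 3 or zQ175 mouse 5), 10 (WT mouse 1), 77 (zQ175 mouse 1), 133 (zQ175 mouse 3), 145 and 150 (zQ175:CK2a'(+/-) mice 3 and 1), 153 (CK2a'(+/-) mouse 2) and 587 (WT mouse 2), and 172 to 339 for the others.

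The replicate numbers did not pair the mice, as 2 of 24 pairs with the same number had deviations correlated above 0.1 and 1 of 18 mice correlated best with its own number. With the replicate block 1 member passed between zQ175 and WT (Col6a4, log2 fold change -2.34, adjusted p = 0.0993) and 0 in the other comparisons and the interaction, the same counts as without it. The median SE of the 41 members between zQ175 and WT was 0.328 on the log2 scale, and Col5a1 with a log2 fold change of 1.32 (SE 0.331) between zQ175 and zQ175:CK2a'(+/-) did not pass, so differences of several SE could go uncalled.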
